A study of Mus musculus with 3 samples.

Results

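The genes described here are the taste receptor genes of the mouse, in mature medullary thymic epithelial cells. All genes of the array annotation with a symbol starting with Tas1r or Tas2r were taken, from probe sets with 1 gene symbol, which gave 37 of the 19937 genes on the array. Of these, 3 are Tas1r genes and 34 are Tas2r genes. The symbol rule used no measured value, but the members were chosen with earlier results of these data known.

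Taste receptors are G protein-coupled receptors. Tas1r3 pairs with Tas1r2 to form the sweet receptor and with Tas1r1 to form the umami receptor, and each Tas2r gene encodes a receptor for bitter compounds. In the tongue they signal through a G protein with the gustducin subunit Gnat3, then phospholipase Plcb2, the calcium release channel Itpr3 and the cation channel Trpm5. The same cascade is used by tuft cells, chemosensory epithelial cells that also occur in the thymic medulla and depend on the transcription factor Pou2f3.

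The study hybridised amplified RNA of sorted cells, EpCAM-positive, CD45-negative, low in Ly51 and high in MHC class II, to Affymetrix Mouse Gene 1-ST arrays. All cells came from mice aged 6 weeks and labelled C57b/6, with typically 3 mice pooled for a library. AireKO came from Aire-null mice, which lack Aire in every tissue. Sirt1cKO came from mice with floxed Sirt1 (Sirt1fl/fl) and Foxn1-Cre, which deletes in thymic epithelium from early in its development, and WT from Sirt1fl/fl mice. AireKO mice are not labelled as carrying the floxed allele that the other libraries share. Each genotype had 1 library, so no test was possible, and every difference describes libraries rather than genotypes.

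The libraries differed in ways that bear on every value below. The background was set by the 1027 olfactory receptor genes (Olfr) on the array, a family expressed mainly in the nose. Their 95th percentile stood at a log2 intensity of 6.89 in AireKO, 6.34 in Sirt1cKO and 6.02 in WT. A gene above that limit in a library is called above background there. Aire itself read 11.55 (log2) in AireKO, 11.24 in Sirt1cKO and 11.97 in WT. Sirt1 read 11.42 in AireKO, 11.27 in Sirt1cKO and 11.40 in WT. Neither gene thus marked its knockout, and probe sets outside a deleted part check nothing. The free-text descriptions of the knockout libraries name each other's genotype, so both names stand for the library with that title. The Y-linked gene Eif2s3y stood at 9.75 in AireKO, 8.92 in Sirt1cKO and 4.23 in WT, within background. Xist, expressed from the inactive X chromosome, stood at 6.75 in AireKO, within background, 11.46 in Sirt1cKO and 12.17 in WT. Sirt1cKO thus held transcripts of both, and sex and genotype cannot be told apart. All 14 markers of mature medullary epithelium on the list were above background in each library.

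The share of taste receptors above background lay between those of most other chemoreceptor families and that of all genes. In AireKO 13 of the 37 members were above background, or 35.1%, in Sirt1cKO 14, or 37.8%, and in WT 11, or 29.7%. By construction about 5.06% of Olfr genes exceed the limit, the brightest at 10.88 in AireKO, above every taste receptor there. Of the 167 vomeronasal receptor genes (Vmn1r and Vmn2r), 1 exceeded it in any library, and of the 13 trace amine receptor genes (Taar) 0 did. Of the 4 formyl peptide receptor genes (Fpr-rs), 0 exceeded it in AireKO, 1 in Sirt1cKO and 1 in WT. The shares of all genes above the limit were 56.1% in AireKO, 67.1% in Sirt1cKO and 72.7% in WT. The median log2 level of the members was 6.13 in AireKO, 6.27 in Sirt1cKO and 5.40 in WT. Against the Olfr genes of the same library these medians fell at percentile 80.4 in AireKO, 94.3 in Sirt1cKO and 85.4 in WT.

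**Figure D1:**
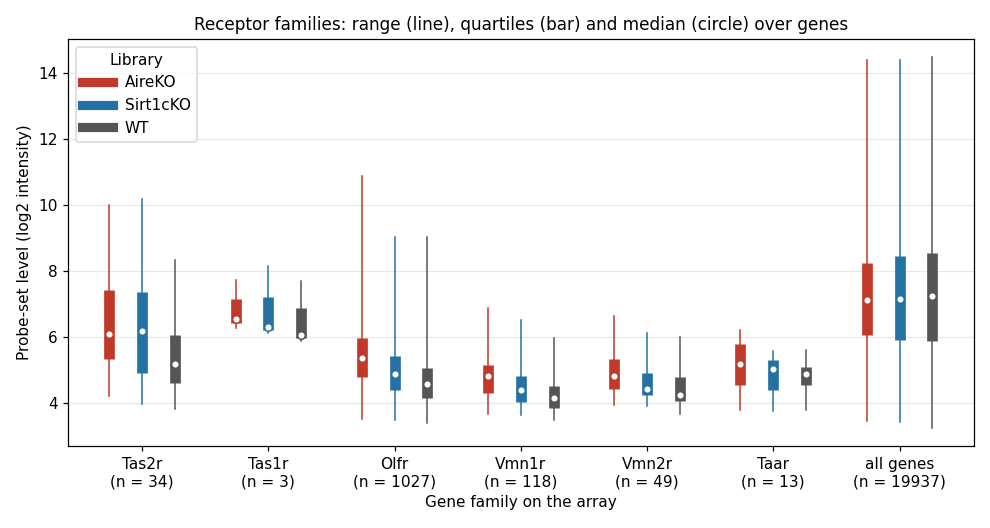
Log2 probe-set level of receptor families and of all genes in AireKO, Sirt1cKO and WT, with the range over genes as a line, the quartiles as a bar and the median as a circle. The upper part of the Tas2r family reached 10.01 in AireKO, 10.19 in Sirt1cKO and 8.36 in WT, while no Vmn1r gene passed 6.88, 6.53 and 5.99 in the same libraries.

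The members ranged from detected in every library to detected in none. Of the 37, 9 were above background in all 3 libraries, 4 in 2 libraries, 3 in 1 library and 21 in none. Above the limit in all 3 libraries were 3.02% of Olfr genes and 55.6% of all genes, so the members' 9 of 37 lay between these shares. Probe sets differ in their affinity, so the order of members by level describes brightness on the array and not the order of transcript amounts.

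**Figure D2:**
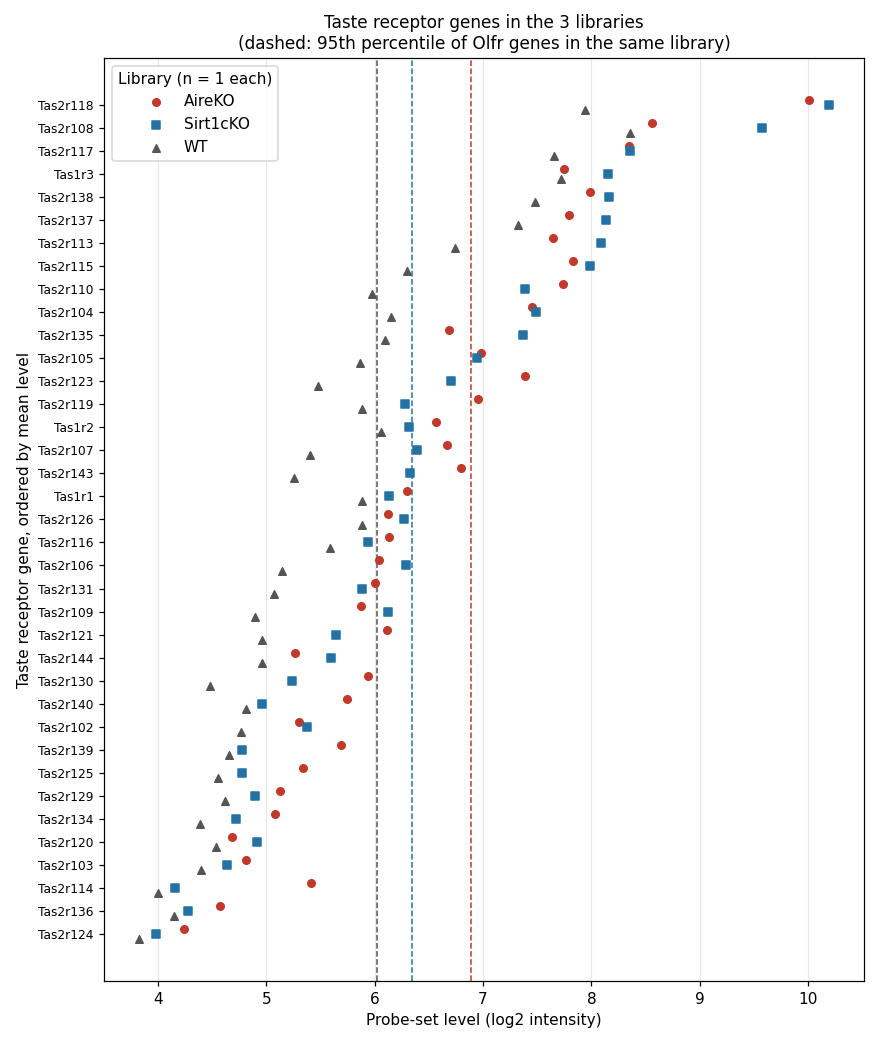
Log2 level of each of the 37 taste receptor genes in AireKO (circles), Sirt1cKO (squares) and WT (triangles), 1 library each, with the 95th percentile of Olfr genes of each library as a dashed line. The 9 genes above all 3 limits are seen in the upper rows, and Tas2r118 is far to the left in WT, at 7.94, compared with 10.01 in AireKO and 10.19 in Sirt1cKO.

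Among the Tas1r genes, the shared subunit gene Tas1r3 was the one detected in every library. Tas1r3 had a log2 level of 7.75 in AireKO, 8.16 in Sirt1cKO and 7.72 in WT, and its differences from WT were 0.03 in AireKO and 0.43 in Sirt1cKO. Its annotated span overlaps Dvl1, a Wnt pathway gene that stood at 9.08 in AireKO, 9.12 in Sirt1cKO and 9.13 in WT, and whether Dvl1 transcripts add to the Tas1r3 value was not tested. The sweet-specific subunit gene Tas1r2 stood at 6.57 in AireKO, 6.31 in Sirt1cKO and 6.06 in WT, which is above the limit in WT alone and by 0.04. The umami-specific subunit gene Tas1r1 stood at 6.30 in AireKO, 6.13 in Sirt1cKO and 5.88 in WT, within background in each. Neither partner gene of Tas1r3 was thus above background in AireKO or Sirt1cKO.

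Among bitter receptors, Tas2r118 had the highest level of any member in both knockout libraries and the widest gap to WT. It is the mouse counterpart of the human receptor for beta-glucosides such as salicin. Tas2r118 had a log2 level of 10.01 in AireKO, 10.19 in Sirt1cKO and 7.94 in WT, at or above percentile 99.8 of Olfr genes in each. The level was 4.18-fold higher in AireKO than in WT and 4.76-fold higher in Sirt1cKO than in WT. Both folds rest on the same WT library, the one with the low value. Sorted by difference, Tas2r118 was in position 23 of 12096 genes in AireKO and in position 5 of 13797 in Sirt1cKO, among genes above background in at least 1 library of the comparison and with a difference that kept its sign at the limit.

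Tas2r108, a receptor for denatonium in mouse, was the next brightest and differed from WT in 1 of the knockouts. Tas2r108 had a log2 level of 8.55 in AireKO, 9.57 in Sirt1cKO and 8.36 in WT. AireKO lay 0.20 above WT, and Sirt1cKO was 2.33-fold higher than WT. Its neighbours on chromosome 6 are Tas2r137 and Tas2r138, and Tas2r138 is the mouse counterpart of the human receptor for phenylthiocarbamide. Tas2r137 had 7.79 in AireKO, 8.13 in Sirt1cKO and 7.33 in WT, and Tas2r138 had 7.98 in AireKO, 8.17 in Sirt1cKO and 7.48 in WT. All of their differences from WT were under 2-fold.

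The members of the large bitter receptor array of chromosome 6 included several near or just above the limit in WT and well above it in the knockouts. Tas2r115 had a log2 level of 7.83 in AireKO, 7.99 in Sirt1cKO and 6.30 in WT, and was 2.88-fold higher in AireKO and 3.22-fold higher in Sirt1cKO. Tas2r104 had 7.45 in AireKO, 7.49 in Sirt1cKO and 6.15 in WT, and was 2.46-fold and 2.53-fold higher in the same order. Tas2r110 had 7.74 in AireKO, 7.39 in Sirt1cKO and 5.98 in WT. The WT value of Tas2r110 was within background, so its folds are bounds, at least 3.30-fold higher in AireKO and at least 2.59-fold higher in Sirt1cKO. Such bounds set the dim value to the limit of its library.

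Other members of that array differed in 1 knockout or fell short of 2-fold. Tas2r113 had a log2 level of 7.64 in AireKO, 8.09 in Sirt1cKO and 6.74 in WT, and was 2.54-fold higher in Sirt1cKO, while AireKO differed by 0.90. Tas2r123 had 7.39 in AireKO, 6.70 in Sirt1cKO and 5.48, within background, in WT, and was at least 2.58-fold higher in AireKO and at least 1.61-fold higher in Sirt1cKO. Tas2r105, a receptor for cycloheximide in mouse, had 6.98 in AireKO, 6.95 in Sirt1cKO and 5.86 in WT, at least 1.95-fold higher in AireKO and at least 1.90-fold in Sirt1cKO. These values place Tas2r105 just under the threshold in both knockouts. Tas2r117 had 8.34 in AireKO, 8.36 in Sirt1cKO and 7.66 in WT by the brighter of its probe sets. The dimmer probe set of Tas2r117 read 6.67, 6.55 and 5.75 in those libraries, so its level depends on the probe set, while the gap to WT was similar. That dimmer probe set was above the limit in Sirt1cKO alone, so detection of Tas2r117 in every library rests on the brighter one.

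Outside that array, Tas2r135 had a log2 level of 6.69 in AireKO, within background, 7.37 in Sirt1cKO and 6.10 in WT, and was 2.42-fold higher in Sirt1cKO. Tas2r119, the mouse counterpart of human TAS2R1, had 6.95 in AireKO, 6.28 in Sirt1cKO and 5.89 in WT, and was above the limit in AireKO alone. The span of Tas2r119 overlaps the predicted gene Gm32499. Tas2r107 had 6.66 in AireKO, 6.39 in Sirt1cKO and 5.40 in WT, above the limit in Sirt1cKO alone and by 0.05. The brightest Tas2r genes still within background were Tas2r143 in AireKO, at 6.80, and in Sirt1cKO, at 6.33, and Tas2r110 in WT, at 5.98. At the other end Tas2r124 had the lowest mean level of the members, at 4.24 in AireKO, 3.98 in Sirt1cKO and 3.82 in WT.

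The first comparison asked how the members stood in AireKO against WT. With a call defined as at least 2-fold after values within background are set to the limit, 5 of the 37 members, or 13.5%, were called higher, against 1.53% of all genes. The 5 were Tas2r104, Tas2r110, Tas2r115, Tas2r118 and Tas2r123, and 0 members were called lower, against 4.62% of all genes. The unfiltered median difference was 0.79 for the members, 0.70 for Olfr genes and 0.02 for all genes. Olfr genes as a whole thus read higher in AireKO, and the members as a list lay 0.086 above the Olfr median. With Olfr medians set equal between libraries, Tas2r118 was the 1 member still called, against 0.206% of all genes, at a difference of 1.28, and 18 of 37 members lay above 0.

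The second comparison set Sirt1cKO against WT. Here 7 of the 37 members, or 18.9%, were called higher, against 0.466% of all genes, and 0 were called lower, against 0.948% of all genes. The 7 were Tas2r104, Tas2r108, Tas2r110, Tas2r113, Tas2r115, Tas2r118 and Tas2r135. The median difference was 0.68 for the members, 0.27 for Olfr genes and 0.00 for all genes, so the members as a list lay 0.41 above the Olfr median. With Olfr medians set equal, Tas2r108 and Tas2r135 dropped out and 5 members remained called, against 0.135% of all genes. Among the 6957 other genes with a mean level between the members' quartiles, 5.15 and 7.03, the median difference was 0.17 in AireKO and 0.04 in Sirt1cKO, and 1.09% and 0.101% were called higher. Both comparisons use the same WT library, so the 4 genes called in both are not independent observations.

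**Figure D3:**
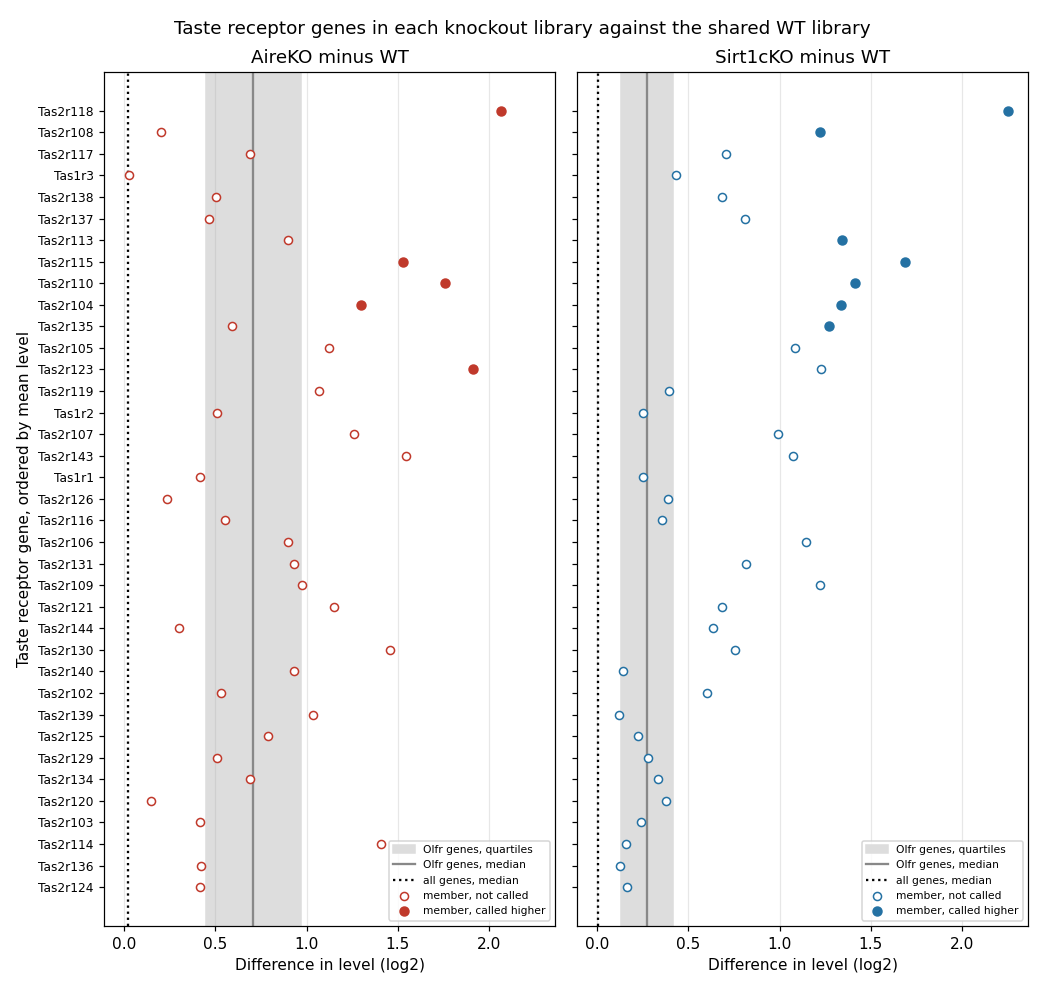
Difference in log2 level from WT for each member, in AireKO (left) and Sirt1cKO (right), with called members filled, the quartiles of Olfr genes as a grey band, and the medians of Olfr genes and of all genes as lines. The called members lie at 1.30 and above in AireKO and at 1.22 and above in Sirt1cKO. Their place outside the Olfr band follows from the 2-fold rule, since the band ends at 0.97 in AireKO and 0.42 in Sirt1cKO. Single Olfr genes, not drawn, reached 3.78 in AireKO and 2.12 in Sirt1cKO. Some of the other members sit inside the band in both panels, around 0.70 in AireKO and around 0.27 in Sirt1cKO, and others lie above or below it. Tas2r143, not called because it was within background, lies above the band at 1.54 in AireKO and 1.07 in Sirt1cKO.

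Between the knockouts, Sirt1cKO minus AireKO, 1 of 37 members, Tas2r108, was called higher, at 2.03-fold. This is 2.70%, against 1.39% of all genes, and 0 were called lower, against 0.557% of all genes. The call of Tas2r108 was lost after quantile normalization, after loess and with the medians over all genes set equal. In the same comparison 7 of 23 tuft cell markers were called higher and 21 of the 23 lay above 0, with a median of 0.72. Their part in the Tas2r108 difference was not tested. Tas2r118 differed by 0.19 between the knockouts.

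Each neighbourhood of chromosome 6 held bitter receptors that were detected in at least 1 library, in different numbers. In RefSeq (GRCm38.p6), 32 of the 34 Tas2r genes lie on chromosome 6, in 4 neighbourhoods when genes more than 1000 kb apart are separated. Tas2r118 lies alone, between Rnf148 and Slc13a1 as the nearest other genes on the array. Rnf148 was within background in every library. The sulphate transporter gene Slc13a1 stood at 7.35 in AireKO, 6.55 in Sirt1cKO and 6.03 in WT. It lay above WT by 1.32 in AireKO and by 0.51 in Sirt1cKO. The 3 genes from Tas2r137 to Tas2r138 were above background in all 3 libraries. In the 5 genes from Tas2r139 to Tas2r126, 0 were above background in AireKO, 1 in Sirt1cKO and 1 in WT, Tas2r135 in each case. In the 23 genes from Tas2r130 to Tas2r140, 7 were above background in AireKO, 8 in Sirt1cKO and 4 in WT, and detected genes stood next to undetected ones. Tas2r115, detected in each library, has as neighbours Tas2r121, at 6.11 in AireKO, 5.64 in Sirt1cKO and 4.96 in WT, and Tas2r124, the dimmest member.

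**Figure D4:**
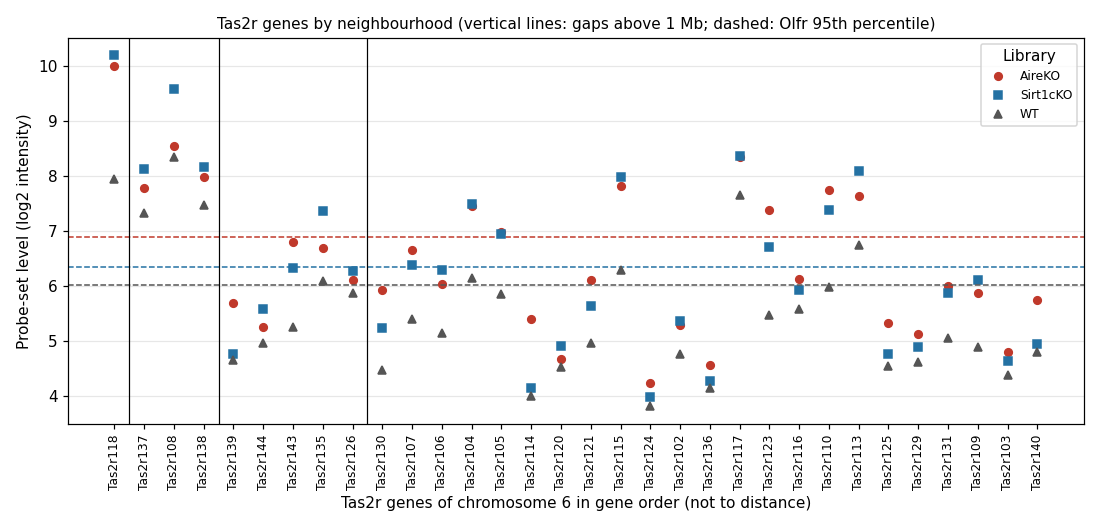
Log2 level of the 32 Tas2r genes of chromosome 6 in gene order, in AireKO, Sirt1cKO and WT, with vertical lines between neighbourhoods and the limits as dashed lines. The Tas2r137, Tas2r108 and Tas2r138 group is above all limits, and in the neighbourhood of 23 genes on the right, genes above the limits stand next to genes below them.

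Sequences before the coding start were examined for the octamer bound by POU factors such as Pou2f3, ATGCAAAT on either strand (ATTTGCAT on the other), and the matches are shown because tuft cells depend on Pou2f3. RefSeq windows of 250 bases before to 50 after the annotated start (GRCm38.p6) matched 33 of the 37 members, 30 of them Tas2r genes. In 28 of these 30 the annotated start is the start codon itself, so the windows show what precedes the coding sequence and not a mapped transcription start. The octamer occurred in 7 of the 30 Tas2r windows, or 23.3%. It occurred in 1.74% of all 32851 windows, 2.64% of 948 Olfr windows and 2.83% of windows with a GC content inside the range of the Tas2r windows. A match is a description of letters and not a site. The 7 stretches follow, 10 bases before to 50 after each match on the strand of the gene, with the octamer in capitals.
Tas2r118, chr6:23970127-23970194, minus strand: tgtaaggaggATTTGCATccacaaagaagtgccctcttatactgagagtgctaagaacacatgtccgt
Tas2r108, chr6:40493436-40493503, plus strand: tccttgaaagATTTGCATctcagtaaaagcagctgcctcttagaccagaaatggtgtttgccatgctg
Tas2r137, chr6:40491036-40491103, plus strand: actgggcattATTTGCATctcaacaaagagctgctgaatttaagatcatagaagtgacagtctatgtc
Tas2r135, chr6:42405376-42405443, plus strand: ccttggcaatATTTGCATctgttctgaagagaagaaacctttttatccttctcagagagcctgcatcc
Tas2r126, chr6:42434331-42434398, plus strand: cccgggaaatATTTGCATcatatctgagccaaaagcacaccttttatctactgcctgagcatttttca
Tas2r144, chr6:42215161-42215228, plus strand: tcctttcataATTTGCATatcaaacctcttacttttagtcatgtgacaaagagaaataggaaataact
Tas2r107, chr6:131660328-131660395, minus strand: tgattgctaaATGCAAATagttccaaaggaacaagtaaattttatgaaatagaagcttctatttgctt

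In 6 of the 7 the letters run as ATTTGCAT along the gene, and in those 6 the first base of the match lies 124 to 194 bases before the start codon. In 5 of them a C follows. Of the 7 genes, 5 were above background in at least 1 library, against 8 of the 23 Tas2r genes whose window lacks the octamer. In AireKO 3 of the 7 and 8 of the 23 were above background, in Sirt1cKO 5 and 7, and in WT 4 and 4. The median log2 level of the 7 was 6.69 in AireKO, 7.37 in Sirt1cKO and 6.10 in WT, and that of the 23 was 5.94, 5.88 and 4.90. The median difference from WT of the 7 was 0.47 in AireKO and 0.99 in Sirt1cKO, and that of the 23 was 0.93 and 0.69. Tas2r107 alone of the 7 lies in the neighbourhood from Tas2r130 to Tas2r140, while most of the 23 lie there. Octamer and neighbourhood are thus not separated. Tas2r117, above background in every library, has no window and is in neither group. These groups were formed after the levels were known and have no test. Among taste transduction genes with a window, 3 of 22 held the octamer, which were Itpr3, Pde1c and Rgs21.

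The whole windows of 3 called members are shown for comparison, Tas2r118 and Tas2r108 with the octamer and Tas2r115, higher in both knockouts, without it. Capitals mark the octamer and, after the first 250 bases, the start codon.
Tas2r118, chr6:23970011-23970310, minus strand: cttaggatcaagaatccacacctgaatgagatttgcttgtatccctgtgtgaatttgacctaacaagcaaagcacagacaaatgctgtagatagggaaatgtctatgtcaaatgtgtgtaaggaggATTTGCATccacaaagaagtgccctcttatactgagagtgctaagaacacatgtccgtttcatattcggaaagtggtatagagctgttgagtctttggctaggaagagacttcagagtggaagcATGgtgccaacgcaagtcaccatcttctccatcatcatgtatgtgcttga
Tas2r108, chr6:40493342-40493641, plus strand: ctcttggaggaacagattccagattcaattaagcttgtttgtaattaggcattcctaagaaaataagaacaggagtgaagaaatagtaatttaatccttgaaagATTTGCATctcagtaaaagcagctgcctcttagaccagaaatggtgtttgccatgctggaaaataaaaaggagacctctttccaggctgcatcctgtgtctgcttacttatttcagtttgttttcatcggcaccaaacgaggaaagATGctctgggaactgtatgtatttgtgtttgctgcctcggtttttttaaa
Tas2r115, chr6:132737937-132738236, minus strand: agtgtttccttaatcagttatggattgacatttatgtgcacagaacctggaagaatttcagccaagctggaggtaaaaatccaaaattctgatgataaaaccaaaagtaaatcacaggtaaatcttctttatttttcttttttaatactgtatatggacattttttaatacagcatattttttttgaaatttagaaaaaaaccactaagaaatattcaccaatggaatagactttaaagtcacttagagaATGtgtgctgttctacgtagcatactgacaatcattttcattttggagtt

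At the 2-fold threshold and on the deposited scale, no gene of the taste transduction list was called higher than WT in either knockout. The list holds genes of the signalling cascade and others, such as the transcription factor gene Pou2f3 and the glucose transporter gene Slc5a1. Of 40 listed taste transduction genes 36 were on the array, and 23 were above background in AireKO, 28 in Sirt1cKO and 32 in WT. The shares of all genes above background rose in the same order, at 56.1%, 67.1% and 72.7%, while the limit fell. In AireKO 0 of the 36 were called higher and 4 lower than in WT, against 1.53% and 4.62% of all genes. In Sirt1cKO 0 were called in either direction, against 0.466% higher and 0.948% lower of all genes. With so few genes, 0 calls lie near these shares. Of the 12 alternatives, loess gave 1 gene higher in AireKO, the phosphodiesterase gene Pde1c. The 1.5-fold threshold gave Pde1c in AireKO, against 5.09% of all genes, and Gnat3, Gng13 and Plcb2 in Sirt1cKO, against 2.54%. The median difference of the list was -0.28 in AireKO and -0.01 in Sirt1cKO, which became 0.06 with medians over all genes set equal. In this mixed population, fewer cells of a type and less RNA per cell cannot be told apart.

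The G protein subunit gene Gnat3 had a log2 level of 9.86 in AireKO, 10.33 in Sirt1cKO and 9.55 in WT. Its partner subunit genes were Gng13, at 9.51 in AireKO, 10.20 in Sirt1cKO and 9.28 in WT, and Gnb3, at 8.29, 9.27 and 9.23 in that order. The cascade was thus detected in every library at the level of its G protein. Plcb2 stood at 8.86 in AireKO, 10.30 in Sirt1cKO and 9.61 in WT. Itpr3 stood at 8.56 in AireKO, 9.01 in Sirt1cKO and 9.29 in WT. Trpm5 stood at 8.32 in AireKO, 9.73 in Sirt1cKO and 9.26 in WT. These effector genes were lowest in AireKO, where Tas2r118 was high, and Plcb2 and Trpm5 were 2.72-fold and 2.65-fold higher in Sirt1cKO than in AireKO.

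Pou2f3 stood at 9.46 in AireKO, 10.22 in Sirt1cKO and 9.72 in WT. The ATP release channel gene Calhm1, which taste cells use to signal to nerves, was at 6.18 in AireKO, 6.19 in Sirt1cKO and 6.07 in WT, above the limit in WT alone. Rgs21, a regulator of G protein signalling in taste cells, was at 6.07 in AireKO, 6.90 in Sirt1cKO and 6.59 in WT, within background in AireKO. The 4 genes called lower in AireKO were the carbonic anhydrase gene Car4, at least 7.21-fold, the sodium channel subunit gene Scnn1a, 2.26-fold, the receptor transporter gene Rtp4, 2.12-fold, and the glucose transporter gene Slc5a1, at least 2.11-fold. Rtp4 was lost after quantile normalization, Rtp4 and Scnn1a after loess, and Rtp4 and Slc5a1 with medians over all genes set equal. The shares of all genes called lower were then 3.29%, 3.08% and 3.42%. Slc5a1 was lost with the 99th percentile as limit, and Car4 alone stayed called at 3-fold, against 3.62% and 0.943%. With Olfr medians set equal, 17 of the 36 were called lower in AireKO, against 28.7% of all genes, and 1 in Sirt1cKO, against 3.48%.

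**Figure D5:**
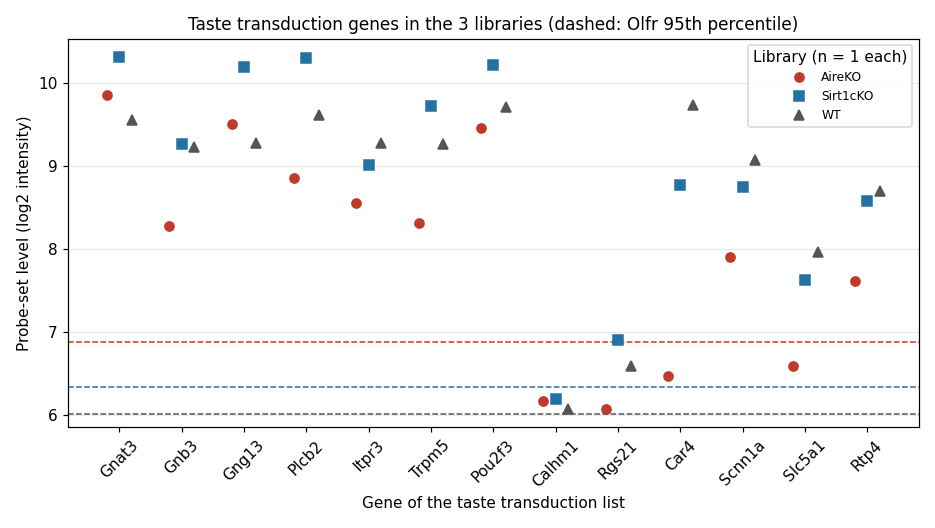
Log2 level of the named taste transduction genes in AireKO, Sirt1cKO and WT, with the limit of each library as a dashed line. Gnb3, Plcb2, Itpr3 and Trpm5 are lowest in AireKO, and Car4 falls under the limit there, at 6.48.

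Tuft cell markers lay mostly above WT in Sirt1cKO and on both sides of WT in AireKO. Of 24 listed markers 23 were on the array, and 21 were above background in AireKO, 23 in Sirt1cKO and 23 in WT. Chat and Ltc4s were under the limit in AireKO. The shares of all genes above background were 56.1% in AireKO, 67.1% in Sirt1cKO and 72.7% in WT. The log2 summed intensity of the tuft cell markers was 13.16 in AireKO, 13.90 in Sirt1cKO and 13.37 in WT, with single markers at 6.72 to 9.86, 7.04 to 10.33 and 6.57 to 9.72. In Sirt1cKO 21 of the 23 lay above WT with a median of 0.54, against 10060 of all 19937 genes, and 0 were called. In AireKO 10 of the 23 lay above WT with a median of -0.18, against 10278 of all 19937 genes, and Ltc4s and Il17rb were called lower. The part of tuft cells in the receptor levels was not tested. Of the listed markers on the array for thymocytes (9), for dendritic cells and macrophages (8) and for sperm and testis (6), 0 were called in either knockout against WT. Of the 14 markers of mature medullary epithelium, Krt5, Cldn3 and Cldn4 were called lower in AireKO, by 2.12-fold, 2.23-fold and 2.34-fold, and the list's median difference was -0.55. Of 6 cortical epithelium markers, Prss16 and Ctsl were called lower in AireKO, by 2.15-fold and 2.91-fold. Of 7 markers of taste bud type I and III cells, Snap25 was called higher in AireKO, by 3.69-fold, and Car4 lower. In Sirt1cKO 0 markers of these 3 lists were called against WT. The shares of all genes called were 1.53% higher and 4.62% lower in AireKO, and 0.466% higher and 0.948% lower in Sirt1cKO. With lists this short, 0 calls lie near these shares. The part of these cell types in the receptor levels was not tested.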

How the data were processed

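The deposited file holds linear intensities of 34760 probe sets in 3 libraries. RMA was used by the authors, per the submitters' processing notes, and neither its version nor a step back to a linear scale is stated. Log2 was taken, with no further normalization. The platform annotation listed no symbol for 11799 probe sets, several symbols for 1321 and a single one for 21640, which were used. The probe set with the highest mean was kept per gene. All 37 members, from 38 probe sets, matched RefSeq by Entrez identifier, and 0 symbols changed.

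Values at or below the 95th percentile of Olfr genes in their library were treated as background and raised to that limit before a 2-fold call. With 1 array per group there is no error estimate, and the number of arrays limits precision. The median intensity over all probe sets was 116.4 in AireKO, 111.2 in Sirt1cKO and 107.8 in WT.

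Named genes were the Tas1r genes, each Tas2r gene above background or called, and fixed and called taste transduction genes. Genes of like brightness, the octamer groups, the neighbours and the markers singled out beside them were added after values were seen. Members and lists were chosen with earlier results of these data known. Calls were tested on simulated data with changes added only to genes well above background, so that test does not cover calls near the limit. The tools were pandas 2.3.3, numpy 2.4.6, statsmodels 0.14.6 and matplotlib 3.10.9 under Python 3.11.15.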

Additional observations from a re-analysis of the deposited data

How the results depend on the processing

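Scaling, the background limit, the genes that set it, the handling of several probe sets, the fold threshold and the labels were varied 1 at a time. Tas2r118 was called higher in both knockouts under all 12 alternatives, with differences of 1.28 to 2.29 in AireKO and 1.93 to 2.32 in Sirt1cKO. Those ranges come from the scaling alternatives. Changes of limit, background genes, probe-set handling and fold threshold left the differences of Tas2r118 as they were, and exchanged labels swapped them. Every alternative uses the same WT library. No alternative gave a member called lower against WT. Setting Olfr medians equal moved the median difference of all genes to -0.77 in AireKO and -0.32 in Sirt1cKO. The count called higher in AireKO, 5, became 8 with medians over all genes set equal (2.12% of all genes), 1 with Olfr medians set equal (0.206%), 9 with the 90th percentile as limit (1.84%), 1 with the 99th (1.06%), 9 with Vmn1r and Vmn2r genes as background (2.22%), 9 at 1.5-fold (5.09%) and 2 at 3-fold (0.356%). The count in Sirt1cKO, 7, became 4 with the 99th percentile (0.386%), 12 with Vmn1r and Vmn2r genes (0.547%), 12 at 1.5-fold (2.54%) and 2 at 3-fold (0.0451%). Counts called that changed by no more than 1.5-fold are not listed. Members above background in AireKO, Sirt1cKO and WT became 17, 21 and 16 with the 90th percentile, and 9, 11 and 6 with the 99th. With Vmn1r and Vmn2r genes they became 18, 24 and 21, and with the mean of all probe sets Sirt1cKO had 15. A changed limit also moves the share of all genes above it, which was not computed for these settings. The gap between the members' median and the Olfr median in AireKO, 0.086, became 0.19 after quantile normalization, 0.20 after loess, and 0.41 with the knockout labels exchanged, when that of Sirt1cKO became 0.086. Between the knockouts, the 1 member called higher became 0 after quantile normalization, against 1.21% of all genes, and after loess, against 1.09%. The count was also 0 with equal medians over all genes (1.23%) and at 3-fold (0.251%). At 1.5-fold 2 members were called lower, against 2.66% of all genes. With 37 members, 0 calls lie near such shares. Beyond what each alternative does by construction, the cause was not tested. The alternatives between the knockouts were added after the data were examined. No paired analysis was possible because each genotype has 1 library.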
